A study of Homo sapiens with 4 samples.

Results

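Isolated Argonaute regions with a score of 11 or more were taken from a list of RNA regions mapped by PAR-CLIP in HEK293, a human embryonic kidney cell line. A region was a member when it lay on chromosomes 1 to 22 or X of the human genome build hg19, had a deposited score of at least 11, and had no other region on its strand within 10000 nt, measured from edge to edge. There were 475 such regions among 211947 in the whole list. Both the score and the gap chose the members, so both are described here and not tested. They are compared with the 19936 regions on the same chromosomes that reached a score of 11 and did have a same-strand region within 10000 nt, called clustered regions below.

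Argonaute proteins hold a microRNA and use it to find partly complementary RNA, most often messenger RNA, whose translation and stability are then lowered. Pairing rests mainly on the seed, a short stretch near the 5′ end of the microRNA. MicroRNAs are cut from hairpin precursors. PAR-CLIP of Argonaute can recover both the microRNAs themselves and the RNAs they sit on. A messenger RNA often carries several sites close together on 1 strand, whereas a hairpin or a short noncoding RNA can stand alone in the genome.

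The series held 4 libraries, 3 from AGO1 and 1 from AGO2. For AGO1, HEK293 lines stably expressing a His/FLAG/HA-tagged protein were fed 4-thiouridine at 200 µM for 16 h, and the FLAG tag was precipitated. For AGO2, HEK293 cells were fed 100 µM for 16 h and the protein was precipitated with the antibody 11A9, and no tag is named in that library's own labels, although the design text of the series describes a tag on either protein. All cells were crosslinked with ultraviolet light at 365 nm. The list gives 1 score per region and no value per library, so AGO1 and AGO2 cannot be told apart, replicate error cannot be given for any value, and library depth is unknown. Intervals of shares below are Wilson 95% intervals, and intervals of differences between shares are Newcombe 95% intervals. They cover counting error only, and they are too narrow for clustered regions, several of which can come from 1 RNA. The sources used here do not say what the score counts. A score of 11 or more is therefore read as a position on the authors' scale of 1 to 1000. Whether it is a number of reads is not known here. No hg19 sequence or annotation was used here, so regions are named by position, and neither their bases nor their genes are given.

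Isolation was uncommon among regions of this score. The 475 members made up 2.33% of the 20411 regions with a score of at least 11 on these chromosomes, against 8.31% of the 211635 regions of any score. They carried 2.65% of the summed score of the regions at or above 11. The 2 strands shared them nearly evenly, with 232 on plus strands and 243 on minus strands. The plus-strand share of 48.8% (44.4 to 53.3) was 3.59 percentage points below that of clustered regions, with an interval of the difference from -8.11 to 0.954.

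Most members, like most clustered regions, lay near the lower end of the score range. The median score was 16 (interquartile range 12.5 to 25), against 17 (13 to 27) in clustered regions. A score of 20 or less was held by 319 members (67.2%) and by 12188 of the 19936 clustered regions. A score of exactly 11 was held by 65 members, 2.78% of the 2339 regions of that score. Scores of at least 50 were held by 49 members (10.3%) and scores of at least 100 by 19 (4.00%). Of the 19936 clustered regions, 506 had scores of at least 100. Members made up 2.36% of the regions of score 51 or more, near the 2.33% at scores of 11 or more. The values near the limits of the rule were close to each other. Just below the score limit, 88 isolated regions had a score of 10, with a median width of 27 nt, against 25 nt for the 65 at 11. The 3 members with the smallest gaps began with chr5:21459622-21459665 on the plus strand, whose neighbour lay 10015 nt away, followed by chr5:53504641-53504663 on the minus strand at 10079 nt. The third place was shared by chr1:149670084-149670112 and chr1:149680198-149680288 on the minus strand, which are 10085 nt apart and are each other's neighbour. Just outside lay chr7:140086577-140086610 on the minus strand with a gap of 10000 nt, chr1:18849607-18849629 on the plus strand with 9989 nt and chr1:229567071-229567100 on the minus strand with 9959 nt.

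Isolated regions were narrow. Their median width was 29 nt (interquartile range 24 to 42, range 18 to 193), against 59 nt (40 to 85) in clustered regions. Widths of 23, 24 and 25 nt were held by 35, 31 and 40 members, and no other width by more than 25. Because width rises with score, each member was set against clustered regions with scores within 10% of its own, where at least 20 such regions existed. Of 473 members so matched, 89.6% (86.6 to 92.1) were narrower than the median of their matches, and 45 members were wider. The median ratio of widths was 0.513 and the median difference -26 nt. In 23 of 23 chromosomes the median width of the members was below that of clustered regions, from 24 nt against 62 nt on chromosome 20, which held 3 members, to 38 nt against 56 nt on chromosome 22.

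**Figure D1:**
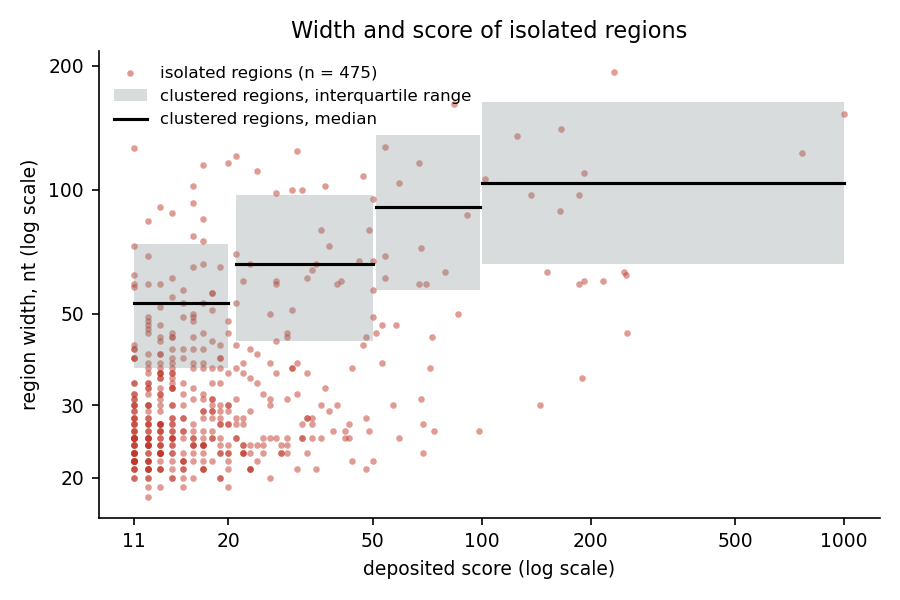
Width in nt against deposited score, both on log scales, for the 475 isolated regions (red points). Grey boxes give the interquartile range and black lines the median of clustered regions for scores of 11 to 20, 21 to 50, 51 to 99 and 100 to 1000. Most points lie below the grey boxes up to a score of 50, where the isolated medians were 27 and 30 nt against 53 and 66 nt.

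Narrow widths were more frequent among the members. A width of 25 nt or less was found in 171 of the 475 members (36.0%, 31.8 to 40.4), against 4.40% of all 20411 regions of this score and 3.65% of clustered regions (3.40 to 3.92). The difference from clustered regions was 32.3 percentage points (28.2 to 36.8). At 22 nt or less the shares were 13.7% and 0.662%, and at 30 nt or less 55.6% and 10.5%. For scale, the 2370 mature microRNA names in the RefSeq table for GRCh38.p14 had a median length of 22 nt, with 5th and 95th percentiles of 18 and 24 nt, and the 1560 hairpins a median of 80 nt. Lengths alone name no RNA, and no member was assigned to a microRNA. Among members of score 11 to 20, 41.1% were 25 nt wide or less, and among those of score 21 to 50, 33.9%. Among the 44 members with a score of 51 or more this held for 2, or 4.55%, against 0.714% of clustered regions at these scores (difference 3.83 percentage points, 0.503 to 14.4).

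The 5 narrowest members were 18 or 19 nt wide. The region chr3:174664865-174664882 on the plus strand was the narrowest at 18 nt, with a score of 12. At 19 nt stood chr4:144550057-144550075 (plus strand, score 20) and chr10:44220978-44220996 (minus strand, score 15). The other two, on the plus strand, were chr18:76079738-76079756 with a score of 13 and chrX:36883644-36883662 with 12. Their gaps ran from 14667 nt on chromosome 3 to 105843 nt on chromosome X.

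Isolated regions stayed narrow up to a score of 50. Below the score limit of the set, isolated regions of score 1 had a median width of 22 nt, those of score 2 and of scores 3 to 5 had 24 nt, and those of scores 6 to 10 had 25 nt. At scores of 11 to 20 and 21 to 50 the members had medians of 27 and 30 nt. Clustered regions widened over the same bands from 29 nt at score 1 to 42 nt at 6 to 10 and 66 nt at 21 to 50. The members thus had more score per nt, with a median of 0.545 against 0.333. Above a score of 50 the isolated median rose to 60.5 nt, against 93 nt in clustered regions. It was 47 nt against 91 nt at scores of 51 to 99, and 89 nt against 104 nt at 100 or more. Of the 17 members of score 100 or more that could be matched by score, 13 were narrower than the median of their matches.

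**Figure D2:**
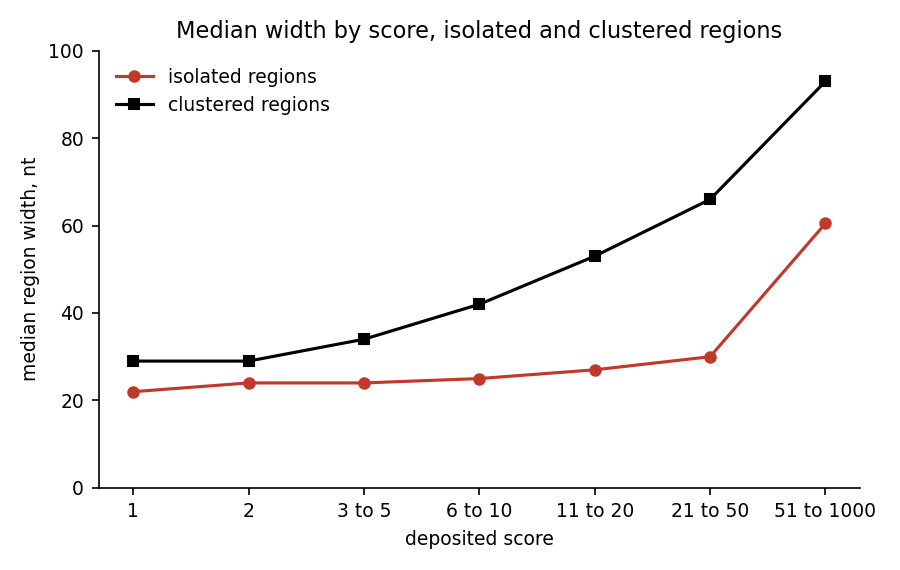
Median width in nt by band of deposited score for isolated regions (red circles) and clustered regions (black squares) on chromosomes 1 to 22 and X. The isolated median moves from 22 to 30 nt between score 1 and scores of 21 to 50 and reaches 60.5 nt above 50, while the clustered median rises from 29 to 66 nt and then to 93 nt.

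Width fell in steps with the gap to the nearest region, on both sides of the limit of 10000 nt. Among regions of score 11 or more, the median width was 66 nt where the neighbour lay within 10 nt, 50 nt at gaps above 100 and up to 1000 nt, and 37 nt at gaps above 5000 and up to 10000 nt. Within the isolated set it was 33 nt for the 149 members with gaps up to 20000 nt and 30 nt for the 135 with gaps up to 50000 nt. It was 27.5 nt for the 74 with gaps up to 100000 nt and 26 nt for the 117 beyond. Scores of 11 to 15 alone gave the same order, from 56 nt at gaps within 10 nt to 30 nt and 25 nt in the nearest and the farthest isolated bands. The median score of the bands lay between 15 and 19 throughout.

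**Figure D3:**
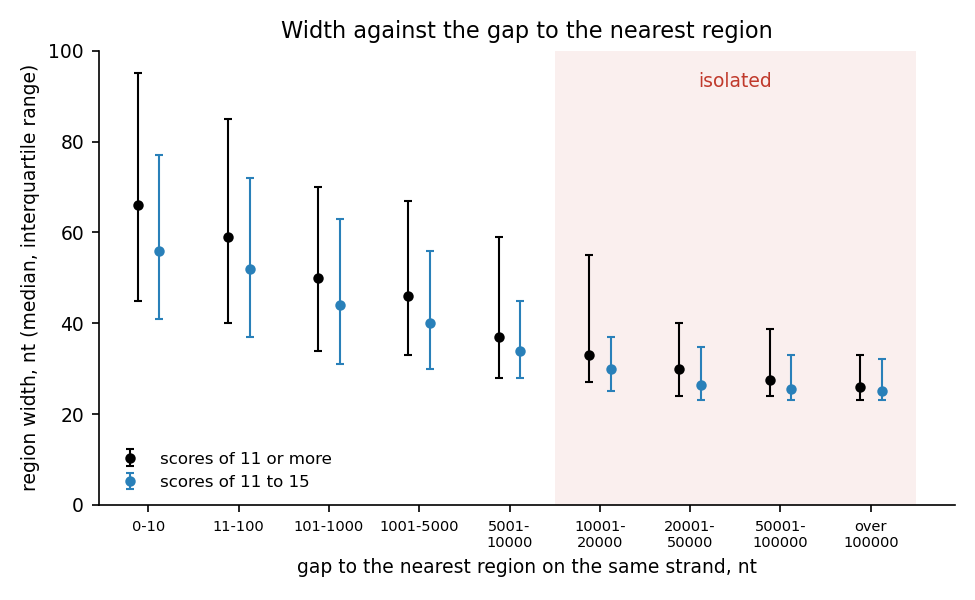
Region width in nt (points, median; bars, interquartile range) by gap in nt to the nearest region on the same strand, for scores of 11 or more (black) and 11 to 15 (blue). The shaded bands are the isolated regions, and the medians fall from 66 to 26 nt and from 56 to 25 nt across the plot.

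Gaps ranged widely among the members. The median gap was 35083 nt (interquartile range 16716 to 96195). It exceeded 100000 nt for 117 members and 1000000 nt for 2. The farthest of all was chr3:164059150-164059176 on the plus strand, 27 nt wide with a score of 20, whose nearest same-strand region lay 1306887 nt away. Next came chr5:46303487-46303508 on the plus strand, 22 nt wide with a score of 20 and a gap of 1090538 nt. Both had no other same-strand region within 1000000 nt of their inner position, a 1-nt position that the list gives for each region. The following 3 lay on minus strands. The region chr4:97445426-97445449 had a score of 16 and a gap of 964195 nt, chr4:30578380-30578406 had 34 and 840726 nt, and chr3:143905834-143905862 had 13 and 604943 nt. These 5 were 22 to 29 nt wide, and none reached a score of 50.

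The neighbours of the members mostly had low scores. The nearest same-strand region had a score of 2 or less for 319 members (67.2%, 62.8 to 71.2), against 33.2% of all regions of score 11 or more and 32.4% of clustered regions. It had a score of at least 11 for 27 members (5.68%), against 22.5% of clustered regions. The rule limits the distance of that neighbour but not its score, yet isolation and low score went together in the list. Isolated regions made up 18.3% of all regions of score 1 and 2.55% of those of score 11 to 20. Scores of 2 or less were held by 49.4% of all regions on these chromosomes. The part of the gap in the neighbours' scores was not tested. Members directly followed another member on the same strand in 8 pairs, of which 2 lay within 20000 nt, on chromosomes 1 and 6.

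Not all members stood in empty stretches. Within 100000 nt on each side of the inner position a member had a median of 3 other regions on its strand (interquartile range 1 to 19), and a clustered region had 46. None was found for 117 members, and 50 or more for 29 (6.11%). At 1000000 nt on each side the medians were 80 and 149. The rule fixes part of this difference, and these counts are a description.

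High scores came in several widths among the members. The 20 highest had scores from 98 to 1000, a median width of 76 nt (range 26 to 193) and gaps from 10471 to 289133 nt. Of these 20, 9 were 97 nt wide or more, 6 were 59 to 63 nt wide, 4 were 45 nt wide or less and the remaining 1 had 89 nt. The highest was chr6:27599184-27599336 on the plus strand, 153 nt wide, at 1000, the highest value of the scale. Its neighbour, 12959 nt away, was itself a member, chr6:27586130-27586224 of 95 nt with a score of 50. A further member on that strand, chr6:27543838-27543948 of 111 nt with a score of 24, lay 42181 nt before it. These 3 members thus followed each other with no other region of that strand between them. The second highest member was chr19:4724608-4724730 on the minus strand, 123 nt wide with a score of 766. Opposite it, 439 nt away, stood chr19:4724072-4724168 on the plus strand, 97 nt wide with a score of 137, and this was the single pair of members within 10000 nt of each other on opposite strands.

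A step lay between these 2 scores and the rest, since the third highest was 252. It belonged to chr6:27652448-27652492 on the minus strand, 45 nt wide, with a same-strand region of score 34 at 12119 nt. The 6 members of 59 to 63 nt followed closely in score. On the minus strand of chromosome X, chrX:139006315-139006376 had 62 nt and a score of 250, and chrX:137749884-137749943 had 60 nt and 192. On plus strands, chr9:116971728-116971790 had 63 nt and 247, and chr16:15737144-15737203 had 60 nt and 216. The minus-strand regions chr8:22102483-22102541 and chr7:25989540-25989602 had 59 nt with a score of 186 and 63 nt with 151. Their nearest same-strand regions had scores of 1 to 3. Widths so alike at scores so high were picked out after the values were seen, and are given with no test.

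The widest members in the top 20 included chr8:141595218-141595410 on the minus strand, the widest of all at 193 nt, with a score of 232 and a gap of 10471 nt, close to the limit. Others of the 5 widest were chr19:45981811-45981950 on the minus strand, with 140 nt and a score of 165, and chr16:22206987-22207121 on the minus strand, with 135 nt and 125. Outside the top 20, chr16:14379745-14379905 on the plus strand had 161 nt and a score of 84. The region chr6:27599184-27599336, described above, completes these 5. Further high scores were held by chr19:39902798-39902907 on the minus strand (110 nt, 191), chr7:148638579-148638675 on the plus strand (97 nt, 185), chr17:8124857-8124945 on the plus strand (89 nt, 164) and chr15:89878296-89878401 on the plus strand (score 102). The neighbour of the chromosome 19 region, 20959 nt away, had a score of 173, the highest among the nearest same-strand regions of these 20.

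A few narrow members reached high scores. The region chrX:53489148-53489182 on the plus strand was 35 nt wide with a score of 189, and its gap of 289133 nt was the widest of the 20. The minus-strand region chr10:115933864-115933893 was 30 nt wide with a score of 145, and the plus-strand region chr19:54485615-54485640 was 26 nt wide with 98. Among the 171 members of 25 nt or less, however, 3 reached a score of 50 (1.75%) and the highest score was 69. Of the 232 members of 26 to 58 nt, 17 reached 50 (7.33%). Of the 32 members of 59 to 70 nt, 12 reached 50 (37.5%), and of the 40 wider than 70 nt, 17 did (42.5%). Width rose with score in clustered regions too, from a median of 53 nt at scores of 11 to 20 to 104 nt at 100 or more. The shares reaching 50 were not computed for clustered regions of these widths. Gaps above 100000 nt were held by 33.3% of the members of 25 nt or less and 22.4% of those of 26 to 58 nt. At 59 to 70 nt the share was 15.6%, and above 70 nt it was 7.50%.

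Regions of the opposite strand were not used by the rule. The 91 members with such a region within 10000 nt (19.2%, 15.9 to 22.9) compare with 24.5% of all regions of score 11 or more and 24.7% of clustered regions (difference from the latter -5.52 percentage points, -8.86 to -1.69). The other 384 (80.8%) had no region on either strand within 10000 nt. The difference from clustered regions depended on the limits. Within 1000 nt it was 0.433 percentage points (-1.23 to 2.80), and with scores of 21 or more alone it was 0.852 (-5.57 to 8.37). At widths of 25 nt or less it was -4.71 (-10.6 to 2.30), and at larger widths -4.70 (-8.86 to 0.201). By their intervals, none of these was told apart from no difference. The values by width were close to the -5.52 of all members, and came from smaller sets of 171 and 304 members. The difference from clustered regions within 10000 nt varied with score. At scores of 11 to 20 it was -8.43 percentage points (-12.0 to -3.99), at 21 to 50 it was -3.88 (-10.6 to 4.67), and at 51 or more, where 18 of 44 members had an opposite-strand region (40.9%), it was 12.4 (-1.04 to 27.2). The first of these bands was thus lower than clustered regions beyond counting error, and the other two were not told apart from them.

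Close to the members, opposite-strand regions lay more often upstream than they did around clustered regions. Upstream is taken in the 5′ to 3′ direction of the member's own strand, so the 2 regions point away from each other. An opposite-strand region lay within 1000 nt of 24 members (5.05%), against 4.63% of all regions of score 11 or more. In 2 of the 24 it overlapped the member, in 16 it lay upstream and in 6 downstream. Upstream placement thus held for 3.37% of the members, against 1.74% of all regions of score 11 or more and 1.70% of clustered regions (difference from the latter 1.67 percentage points, 0.370 to 3.71). Downstream placement held for 1.26%, against 2.47% and 2.50% (difference -1.24 percentage points, -1.96 to 0.240). Of the 22 members without overlap, 72.7% (51.8 to 86.8) had the opposite-strand region upstream, against 40.5% (37.2 to 43.8) of 838 clustered regions, a difference of 32.3 percentage points (11.1 to 46.8). Within 10000 nt the upstream share was 60.7% of 89 members and 38.1% of 4836 clustered regions (difference 22.6 percentage points, 12.1 to 32.2). Within 500 nt, where 13 members had one, the difference of 22.7 percentage points had an interval that includes 0 (-3.66 to 43.9). This measure was chosen after the values were seen.

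**Figure D4:**
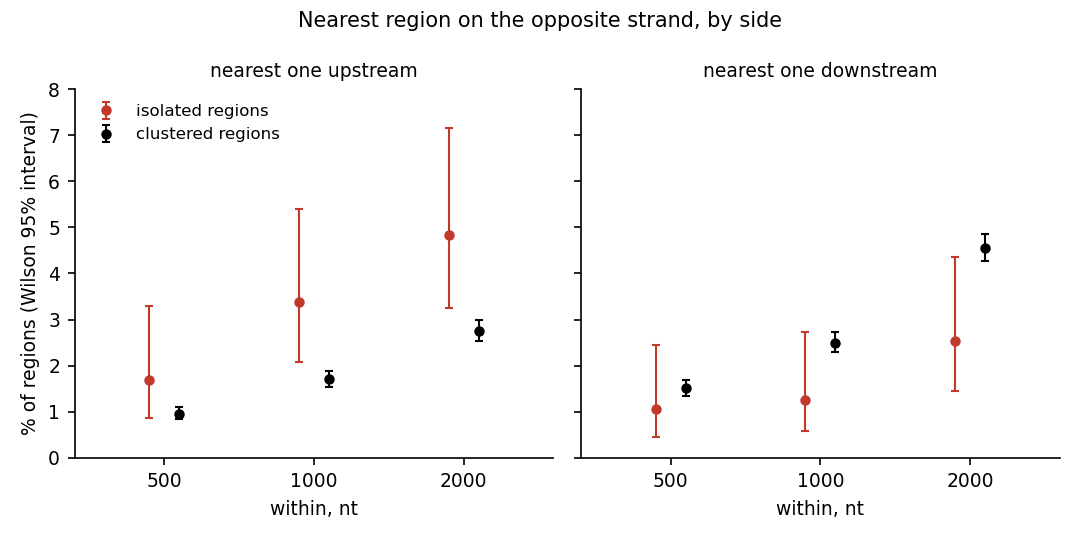
Percent of isolated regions (red) and clustered regions (black) of score 11 or more whose nearest opposite-strand region lies within 500, 1000 or 2000 nt upstream (left) or downstream (right), without overlap; bars are Wilson 95% intervals. Within 1000 nt, 3.37% of isolated regions have it upstream and 1.26% downstream, against 1.70% and 2.50% of clustered regions.

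Over the 24 members, the nearest region on the other strand had a median score of 2. A score of 2 or less was held by 15 of them, and by 49.4% of all regions of the list on these chromosomes. The 2 overlaps were with regions of score 1 and nearly the same edges: chr1:147247038-147247059, a minus-strand member of 22 nt with a score of 24, and chr20:22727847-22727866, a minus-strand member of 20 nt with a score of 26. The smallest gaps without overlap were 108 nt for chr15:73076225-73076261 (plus strand, score 12), 134 nt for chr17:66015998-66016101 (minus strand, score 59) and 154 nt for chr16:67236228-67236252 (minus strand, score 43). In the first of these 3 and in the second the opposite-strand region lay upstream, and in the third it lay downstream. Of the 20 highest-scoring members, 5 had an opposite-strand region within 1000 nt, against 4.63% of all regions of score 11 or more. For chr8:22102483-22102541 it lay 537 nt upstream with a score of 3, and for chr15:89878296-89878401 it lay 972 nt upstream with a score of 1. For chr17:8124857-8124945 it lay 578 nt downstream with a score of 27, and the fourth and the fifth were the facing pair on chromosome 19. Within 10000 nt, 28.6% of clustered regions of score 51 or more had an opposite-strand region, and 23.8% of those of score 11 to 20. The share within 1000 nt was not computed for clustered regions with scores as high as these.

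The inner position was close to an edge more often in narrow members than in clustered regions of the same width range. Most narrow members did not have it there. At 20 to 30 nt its median distance from the 3′ edge was 12 nt in both sets, and from the 5′ edge 11 nt against 13 nt. The sets were not matched for score. The sources used here do not say how it was placed. Among members 20 to 30 nt wide it was one of the 5 outermost nt at either edge in 28 of 259 (10.8%, 7.59 to 15.2), against 2.86% of all 2341 regions of this score and width and 1.87% of 2082 clustered ones (difference from the latter 8.94 percentage points, 5.64 to 13.3). The difference was also above counting error at 20 to 22 nt (12 of 60 against 6.98% of 129, difference 13.0 points, 3.03 to 25.2) and at 23 to 25 nt (11.3% against 2.35% of 596, difference 8.97 points, 4.00 to 16.5). At 26 to 30 nt 4 of 93 members (4.30%) and 1.18% of 1357 clustered regions had it there (difference 3.12 points, 0.407 to 9.38). Both edges contributed, with 17 members at the 5′ edge (6.56%, against 0.528%) and 11 at the 3′ edge (4.25%, against 1.34%). Isolated regions of scores 6 to 10, outside the set, had it in 17.1% of 609, against 2.98% of clustered regions of those scores. The limit of 5 nt, like that of 25 nt for narrow regions, was set after the values were seen.

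On average the inner position stood near the middle. On a scale from 0 at the 5′ edge to 1 at the 3′ edge its mean was 0.486 (SE 0.00905 over 475 members), against 0.510 (SE 0.00149) in clustered regions. The difference of -0.0247 had a 95% interval from -0.0427 to -0.00674 and was small beside the spread of single regions. That interval takes single regions as independent, although several clustered regions can come from 1 RNA. With members of score 21 or more alone the difference was -0.0296, and its interval then included 0 (-0.0624 to 0.00328). On plus strands the means were 0.473 (SE 0.0130) in members and 0.492 (SE 0.00204) in clustered regions. On minus strands they were 0.497 (SE 0.0125) and 0.530 (SE 0.00215). Clustered regions thus differed more between strands than they did from members. On a scale by coordinate instead, the means over both strands were 0.488 and 0.482, so the sign of the difference changed. Among regions of 20 to 30 nt the spread of single regions on the 5′ to 3′ scale was wider in members (SD 0.181) than in clustered regions (SD 0.121).

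Members lay on all 23 chromosomes examined. Chromosome 1 held the most, 50, and chromosome 21 the fewest, 2. As a share of the regions of score 11 or more, members ranged from 0.528% on chromosome 20 (3 of 568, 0.180 to 1.54) to 3.97% on chromosome 3 (36 of 907, 2.88 to 5.45). Chromosome 8 came second highest, with 3.69% of 624, and chromosomes 12, 19 and 17 had shares of 1.44%, 1.38% and 1.29%. The rule itself fixes these shares, and they are a description. Chromosome 17, which has a high share of regions at this score (11.3%), had 17 members among 1315 such regions, and chromosome 4, with a low share (6.94%), had 16 among 538. These 2 are examples, and the order did not hold on every chromosome. Chromosome 6 had 10.8% of its regions at this score, and 39 of those 1237 were members (3.15%).

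**Figure D5:**
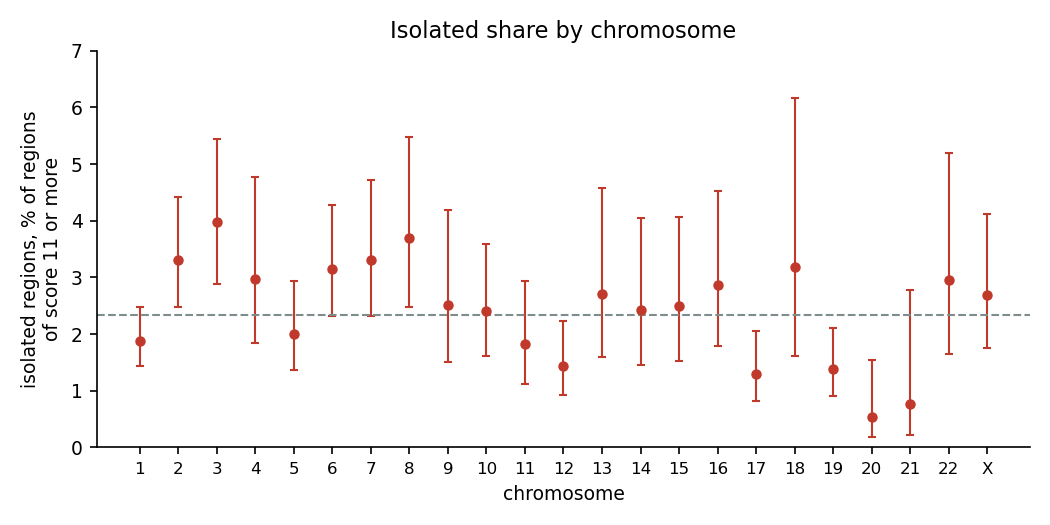
Isolated regions as a percent of all regions with a score of 11 or more on each chromosome; bars are Wilson 95% intervals and the dashed line marks 2.33%, the share over all chromosomes. Chromosomes 3 and 8 stand highest, at 3.97% and 3.69%, and chromosome 20 lowest, at 0.528%.

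Isolation is a property of the list as deposited. Of the members, 94 (19.8%) stood directly beside an ID number that no region in the list carried, against 2.15% of all regions of score 11 or more and 1.73% of clustered regions. The position of what those numbers stood for is not known here.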

How the data were processed

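PAR-CLIP regions were analysed from 1 list pooled over libraries. The submitters' processing notes name BWA 0.5.8c and hg19, without their roles. The list is on hg19 per the file headers, which also name a filter with 0.05 in it. Neither the region caller nor the libraries pooled are stated in the sources used here. The deposited score runs from 1 to 1000, with 7 regions at 1000, and the start, end and inner position are other deposited values, printed counting from 1.

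From these, widths, gaps between edges on the same and the opposite strand, shares with Wilson intervals and their differences with Newcombe intervals (95%) were computed, with no p-value. The gap functions were tested on simulated regions. The members and measures were chosen with earlier results of these data known. Regions named in the text were the 20 of highest score, the 5 widest, narrowest and farthest apart, those nearest the limits and those nearest an opposite-strand region. Planned analyses of bases, seed matches and gene parts need hg19 sequence or annotation, not used here. Computations ran in Python 3.11.15 with scipy 1.17.1, pandas 2.3.3 and numpy 2.4.6, and plots in matplotlib 3.10.9.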

Additional observations from a re-analysis of the deposited data

Results flagged for a closer look

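The ID numbers, a column that the comparisons of width and strand did not use, had gaps beside the isolated regions. The list carried no region for 5521 of its numbers (2.54%), and numbers followed coordinate order in 99.3% of consecutive regions on a chromosome. An unused number stood directly before or after 94 of the 475 members (19.8%, Wilson 95% interval 16.5 to 23.6), against 344 of 19936 clustered regions (1.73%, 1.55 to 1.92), a difference of 18.1 percentage points (14.7 to 21.9). The share was alike in isolated regions of lower scores, with 19.8% at score 1, 19.9% at score 2 and 20.8% at scores of 6 to 10. In members it was 21.9% (17.8 to 26.8) at scores of 11 to 20 and 13.4% (8.29 to 20.9) at 21 to 50. At 51 or more it was 20.5% (11.2 to 34.5), and these intervals overlap. Over the regions of score 11 or more it was 0.670% where the nearest region lay within 10 nt. It was 8.97% at gaps above 5000 and up to 10000 nt and 14.8% above that and up to 20000 nt. At gaps up to 50000 nt it was 22.2% (16.0 to 29.9) and up to 100000 nt 16.2% (9.53 to 26.2). Beyond 100000 nt it was 25.6% (18.6 to 34.2), so the rise was not steady. A wider gap leaves more genome between consecutive numbers, and the part of gap length in this share was not tested. Of the 19 members with a score of at least 100, 5 stood beside an unused number. Without all members and clustered regions beside one, the isolated regions were still 30 nt narrower at the median.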

How the results depend on the processing

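Over 6 results, 32 alternatives were run, 17 planned and 15 chosen after seeing the data. Values stayed within their 95% interval in 14 and moved beyond it in 18. The isolated share of regions of score 11 or more (2.33%) was 3.09% and 1.97% at score minimums of 6 and 21, 3.42%, 1.60% and 0.936% at distances of 5000, 20000 and 50000 nt, and 2.70% and 4.46% when regions of score 2 or more or 3 or more alone counted as neighbours. It was 1.91% without regions beside an unused ID number and 1.88% with isolation on both strands. The share with an opposite-strand region within 10000 nt (19.2%) was 5.05% within 1000 nt, 26.9% at a score minimum of 21 and 13.2% with neighbours of score 3 or more on both strands. Its difference from clustered regions (-5.52 percentage points) was 0.433 within 1000 nt and 0.852 at a score minimum of 21, with intervals that include 0. With neighbours of score 3 or more it was -4.69 (-6.80 to -2.28). The median width difference (-30 nt) was -26 nt at equal score, -34 nt at a score minimum of 21 and -32 nt at 50000 nt. The share 25 nt wide or less (36.0%) was 13.7% at 22 nt, 55.6% at 30 nt and 25.6% at a score minimum of 21. The upstream share of nearest opposite-strand regions within 1000 nt (72.7%) ranged from 60.7% within 10000 nt to 80.0% without the chromosome 19 pair. At 500 nt, with 13 members, its difference from clustered regions had an interval that includes 0 (-3.66 to 43.9 percentage points). The difference in inner position (-0.0247) was -0.0296 at a score minimum of 21, with an interval from -0.0624 to 0.00328. Other limits and definitions move these values by their own construction, since they select other regions. The 4 alternatives on bases, seed matches and gene parts were not run for lack of hg19 sequence and annotation here. No paired analysis was possible because the list pools its libraries. The depth of the libraries is unknown, so what it limits cannot be given.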
